A study of Mus musculus with 2 samples.

Results

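Cluster 11 is one of the clusters annotated as T cells in single-cell RNA data from mouse esophagus, and its members were chosen by the cluster number and cell type (T cell) that the authors gave each cell. It held 221 of the 4853 cells, 58 of 2472 in the control library and 163 of 2381 in the other. The tissue was esophagus with its muscle layers taken off, from mice of hybrid C57BL/6J and BALB/c background, dispersed with trypsin and read with droplet 3′ chemistry that counts unique molecular identifiers (UMIs). Control mice were Keap1 floxB/floxB, so both groups carried floxed Keap1 alleles. The other group, called Keap1 cKO here, was K5CreERT2::Keap1 floxB/floxB and also carried the tamoxifen-inducible recombinase CreERT2 under the keratin 5 promoter, which is active in basal keratinocytes. T cells do not use that promoter, so these lymphocytes are not the cells in which the construct is meant to act. The age of the mice, the time of induction, the deleted exons and the number of mice in a library do not stand in the sources used here. There was 1 library per genotype. No test between genotypes was therefore possible, every interval below covers counting error alone, and a difference between the libraries cannot be told apart from a difference between mice or preparations.

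T lymphocytes read peptides or other ligands through a receptor made of alpha and beta chains or of gamma and delta chains, in a complex with CD3. CD8 T cells kill with granules of perforin and granzymes and release interferon gamma, CD4 T cells help other cells, and the CD4 cells that hold the factor Foxp3 restrain responses. Type 17 lymphocytes, among them many gamma-delta cells of skin and mucosa, release interleukins 17A and 17F, which make epithelial cells call neutrophils.

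KEAP1 is the sensor that marks the stress factor NRF2 for destruction, and Keap1 was read first as the targeted gene. In cluster 11 it gave 13 UMIs in the control and 63 in the Keap1 cKO library, or 37.3 and 53.3 CPM (counts per 1000000 of the cells' summed UMIs). The log2 ratio was 0.51, with a 95% counting interval from -0.36 to 1.5. Epithelial cells of the same libraries had 961 UMIs (69.8 CPM) and 332 UMIs (44.5 CPM). A 3′ count does not read floxed exons as such, so neither value checks the deletion.

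The label of cluster 11 held in part. A CD3 chain (Cd3d, Cd3e or Cd3g) was found in 54 of 58 cells (93.1%) in the control and 157 of 163 in the Keap1 cKO library (96.3%), and a constant segment of the alpha or beta receptor (Trac, Trbc1 or Trbc2) in 58 of 58 and 161 of 163. Of the 6 marker genes given for the cluster, Trac was at an even level of 405 and 410.3 CPM in control and Keap1 cKO cells. The killer-cell gene Nkg7 was found in 46 control cells (79.3%, interval 66.6 to 88.8) and in 59 Keap1 cKO cells (36.2%, 28.8 to 44.1). Ccl5, a chemokine of memory CD8 T cells and natural killer (NK) cells and one of the genes that define the cluster, was found in 31 control cells (53.4%, 39.9 to 66.7) and 36 Keap1 cKO cells (22.1%, 16 to 29.2). Ms4a4b, a membrane protein of T cells, was found in 49 (84.5%) and 97 (59.5%) cells, and granzyme A (Gzma) in 5 (8.62%) and 11 (6.75%). The alpha or beta segments do not set alpha-beta cells apart from gamma-delta cells here. In T cell cluster 3 of the Keap1 cKO library, 370 of 378 cells (97.9%) had such a segment. Trdc, the delta-chain constant segment, was found in 377 of those 378 cells. Trac counted by itself had shares of 77.6% (control) and 74.8% (Keap1 cKO) in cluster 11. Its shares in cluster 3 were 74.6% and 23.5%. Nkg7 was found in most control cells of cluster 11 but a minority of its Keap1 cKO cells. The Keap1 cKO cells also held a set of cells with gamma-delta or interleukin 17 genes, described further on.

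Depth was similar in both libraries. The median cell had 5437.5 UMIs in the control (range 2570 to 16905) and 6469 in the Keap1 cKO library (1418 to 33204), with medians of 2041.5 and 2415 genes, and the summed depth was 348104 and 1182092 UMIs. Single-cell libraries hold free RNA, so a share of cells with a UMI has a background, which was read in red blood cells (median 10831 and 10271.5 UMIs) and epithelial cells (17667 and 5072.5 UMIs). Nkg7 was found in 0.562% and 0.833% of red blood cells and in 2.71% and 2.13% of epithelial cells, and Ccl5 in 2.25% and 1.67% of red blood cells and 7.78% and 2.84% of epithelial cells. The cluster's shares lay well above these. No doublet caller was run. In the control, 2 cells of the CD8 class had 11222 and 6237 hemoglobin UMIs while the next had 25, and in the Keap1 cKO library 4 cells had 22 to 464 UMIs of macrophage and dendritic cell markers; results with a visible dependence on these cells are given without them. Of the 5 cell barcodes that the libraries shared, 0 were in cluster 11.

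Cells of cluster 11 made up 2.35% of the control library (1.79 to 3.02) and 6.85% of the Keap1 cKO library (5.86 to 7.94). Of the annotated T cells they were 41.1% in the control (58 of 141) and 27.7% in the Keap1 cKO library (163 of 589). Cluster 3, the T cell cluster it is compared with, had 59 and 378 cells. These are shares of what was loaded and kept. Genes that define the cluster differ between the libraries, so its size in 1 library is composition and not a count of one cell type.

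The content of cluster 11 was read from a handful of defining genes. Cells with Cd8a or Cd8b1, the 2 chains of the CD8 coreceptor, numbered 26 in the control (44.8%, 31.7 to 58.5) and 44 in the Keap1 cKO library (27.0%, 20.3 to 34.5). The gap was somewhat wider after each cell was thinned to 3900 UMIs, at 48.1% and 21.6%. In red blood cells the CD8 share was 0.562% and 1.67%. Cd4, the coreceptor of helper and regulatory cells, was found in 13 control cells (22.4%, 12.5 to 35.3) and 46 Keap1 cKO cells (28.2%, 21.5 to 35.8), against 0.562% of control red blood cells and 0 of 120 in the Keap1 cKO library, which allows a share of up to 2.50%. Foxp3 was found in 7 cells (12.1%, 4.99 to 23.3) and 24 cells (14.7%, 9.67 to 21.1). Thus the CD4 and Foxp3 shares lay within each other's intervals, whereas the CD8 share was lower in the Keap1 cKO library with intervals that overlap at their ends.

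The delta-chain constant segment, Trdc, goes against the label of alpha-beta cells. It was found in 3 control cells (5.17%, 1.08 to 14.4) and 49 Keap1 cKO cells (30.1%, 23.1 to 37.7), and in 3.85% and 25% of the thinned cells. Free Trdc RNA was abundant in the Keap1 cKO library: 27.3% of its epithelial cells had a UMI (10.7% after thinning), as did 9.17% of red blood cells (3.36%) and 23.5% of fibroblast cluster 1. A share of cells with 1 UMI therefore counts too many. With at least 4 Trdc UMIs asked for, 17 of 163 Keap1 cKO cells of cluster 11 remained (10.4%, 6.19 to 16.2), against 361 of 378 cells of cluster 3 (95.5%), 5 of 187 fibroblasts (2.67%), 11 of 140 cells of epithelial cluster 9 (7.86%), 2 of 93 cells of epithelial cluster 4 (2.15%) and 0 of 120 red blood cells. By that stricter count the share in cluster 11 lay close to that of epithelial cluster 9, which its interval held. Of the 49 cells with a Trdc UMI, 33 also had a gamma-chain constant segment and 26 also had Trac.

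**Figure D1:**
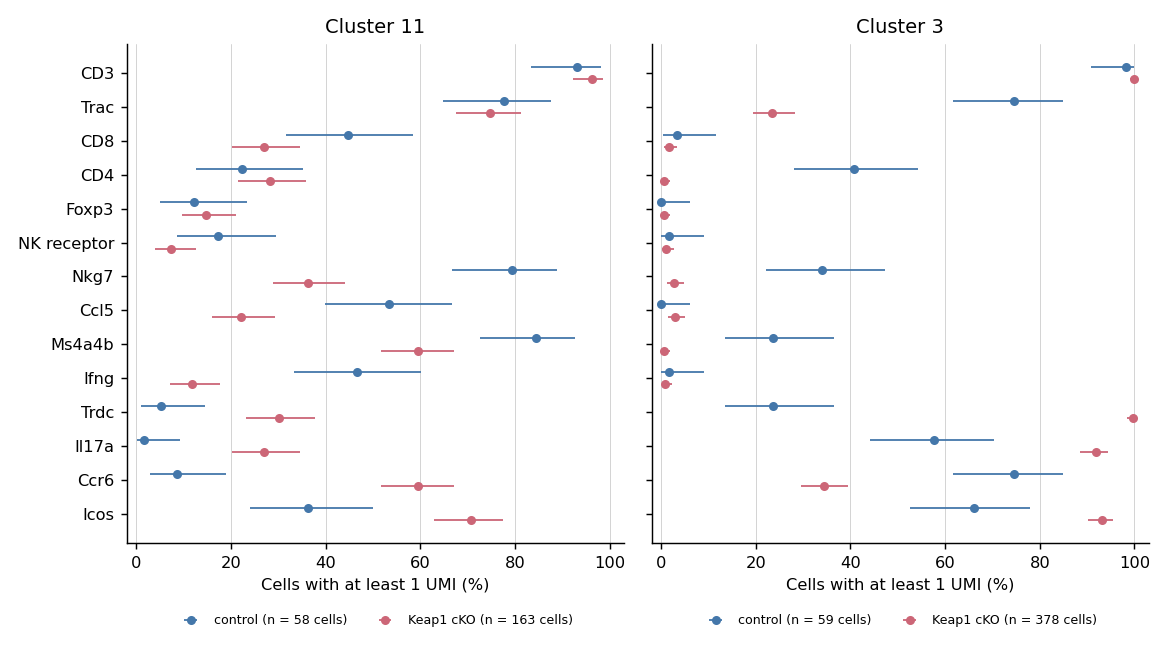
Share of cells with at least 1 UMI of each marker gene or marker set (x axis, percent) in cluster 11 and cluster 3 of the control and Keap1 cKO libraries; points are shares and lines are exact 95% binomial intervals. In cluster 11, Nkg7, Ccl5 and Ifng lie higher in control cells (79.3%, 53.4% and 46.6%) and Ccr6, Il17a and Trdc lie higher in Keap1 cKO cells (59.5%, 27.0% and 30.1%).

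Exclusive classes were then set in a fixed order (Foxp3 first, then CD8, CD4, Trdc, an NK receptor gene without CD3, and the rest). They are ranges of marker UMIs and not cell types, since a missing UMI does not show a missing gene. The CD8 class had 25 of 58 cells (43.1%) in the control and 42 of 163 in the Keap1 cKO library (25.8%). The CD4 class without Foxp3 had 9 (15.5%) and 28 (17.2%), and the Trdc class had 3 (5.17%) and 31 (19%). Cells with Ncr1 or Klrb1c, receptors of NK cells, and without CD3 were few, at 3 and 5, and 11 and 31 cells (19% in each library) had CD3 and none of the other markers. In cluster 3, 367 of 378 Keap1 cKO cells were of the Trdc class, while the control cells divided into 24 of the CD4 class, 13 of the Trdc class and 19 with CD3 alone. Cluster 3 was therefore a different mixture in each library. That bears on every ratio between the clusters below, and on every ratio between the libraries within cluster 3.

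**Figure D2:**
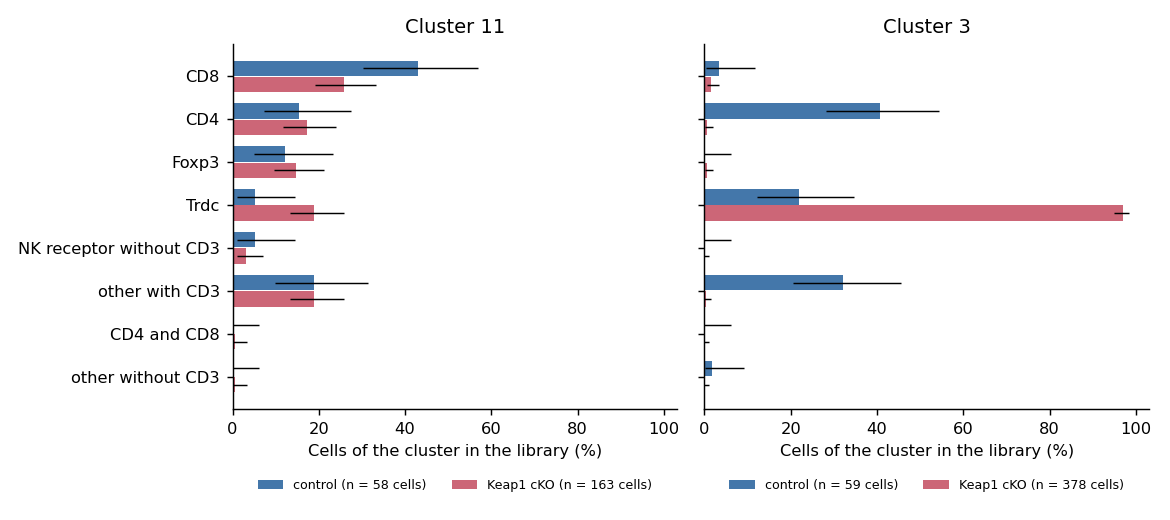
Exclusive classes of cells by marker UMIs, as percent of the cluster's cells in each library (x axis), for cluster 11 and cluster 3; bars start at 0 and lines are exact 95% binomial intervals. The CD8 class of cluster 11 is 43.1% of control and 25.8% of Keap1 cKO cells, and its Trdc class is 5.17% and 19%.

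The promoters of 4 genes that mark the 2 sides of the contrast are printed because the results turn on these genes, Nkg7 and Xcl1 on the cytotoxic side and Il17a and Il17f on the type 17 side. Each line is the 250 bases before the RefSeq start (GRCm38.p6), read 5′ to 3′ on the gene's strand. Capitals mark matches, on either strand, to 2 short motifs: T-box TCACACC, of the family of Tbx21 and Eomes, and RUNX TGTGGT. No capital runs overlap.
Nkg7, chr7:43436888-43437137, plus strand: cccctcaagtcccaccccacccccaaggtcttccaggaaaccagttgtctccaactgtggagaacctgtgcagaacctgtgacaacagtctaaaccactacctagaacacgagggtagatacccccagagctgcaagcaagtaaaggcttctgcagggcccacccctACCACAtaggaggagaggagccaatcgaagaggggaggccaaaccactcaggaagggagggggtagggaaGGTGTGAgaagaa
Xcl1, chr1:164935523-164935772, minus strand: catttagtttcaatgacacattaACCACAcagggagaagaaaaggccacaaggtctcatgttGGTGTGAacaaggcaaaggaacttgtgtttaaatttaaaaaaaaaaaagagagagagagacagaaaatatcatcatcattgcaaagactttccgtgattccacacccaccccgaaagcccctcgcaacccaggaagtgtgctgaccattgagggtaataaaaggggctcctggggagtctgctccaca
Il17a, chr1:20730655-20730904, plus strand: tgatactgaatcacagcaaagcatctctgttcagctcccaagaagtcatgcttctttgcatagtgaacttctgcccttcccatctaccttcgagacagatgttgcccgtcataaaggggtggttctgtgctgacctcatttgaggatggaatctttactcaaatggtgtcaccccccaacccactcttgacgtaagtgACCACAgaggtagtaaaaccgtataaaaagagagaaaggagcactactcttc
Il17f, chr1:20784271-20784520, minus strand: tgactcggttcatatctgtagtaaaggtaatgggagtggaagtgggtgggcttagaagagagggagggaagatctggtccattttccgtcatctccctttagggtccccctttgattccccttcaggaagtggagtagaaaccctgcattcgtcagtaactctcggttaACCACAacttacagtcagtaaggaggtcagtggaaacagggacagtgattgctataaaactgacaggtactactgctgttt
Nkg7 had the T-box letters starting at position -13 from the start and the RUNX letters at -83, and Xcl1 had them at -188 and -227. Il17a had the RUNX letters at -52 and Il17f at -81. All 6 matches lie in the reverse orientation. Among 32851 promoters of 300 bases, 250 before to 50 after a start, the T-box letters occurred in 3.98% and the RUNX letters in 16.8%. The windows printed are shorter by those 50 bases. All positions count from the RefSeq start, which can differ from the GENCODE gene spans given below. By those spans the Nkg7 gene (from 43437073) and the Xcl1 gene (to 164935527) reach into their windows. The Il17f window lies inside the Il17f gene (20777146-20790617). The matches describe letters and are not shown to be bound.

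Against cluster 3, cluster 11 was set apart by cytotoxic, CD8 and NK receptor genes in both libraries. Clusters were made from these genes, so these ratios describe the cluster and are no test. Of 10094 genes with enough UMIs, 4.92% were at least 1.5-fold higher and 5.26% at least 1.5-fold lower in cluster 11 in both libraries. All 7 cytotoxic markers, all 5 measured NK cell markers and 15 of 18 NK and innate-type receptors were among the higher genes, and 15 of 21 gamma-delta and type 17 genes were among the lower ones. Ccl5 stood at 4984 CPM in control cells of cluster 11 and was at 0 in 59 control cells of cluster 3, at least 9.06 higher on the log2 scale. In Keap1 cKO cells it stood at 779 and 3.73 CPM, giving a log2 ratio of 7.71. The ratio of Cd8b1 was 5.51 in the control and 6.83 in the Keap1 cKO library, and that of Ms4a4b was 3.22 and 9.01. Tnfrsf4, the costimulatory receptor OX40 that is strong in regulatory cells, had ratios of 4.43 and 7.21. Foxp3 was at 0 in control cells of cluster 3 and had a ratio of 6.47 in the Keap1 cKO library.

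Some ratios between the clusters depended on the library. Trac was 0.62 lower in cluster 11 than in cluster 3 of the control (log2 ratio -0.62, 405 and 625 CPM) and 3.31 higher in the Keap1 cKO library (410.3 and 41.3 CPM). The kinase Lck, which starts signalling from the T cell receptor, had ratios of 0.53 and 6.92. In both cases the level differed less between the libraries in cluster 11 than in cluster 3: Lck was at 437 and 302 CPM in cluster 11 and at 303 and 2.49 CPM in cluster 3. Cd3e differed little, with ratios of -0.16 and -0.60.

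Genes lower in cluster 11 included those of gamma-delta cells and of type 17 cells. In the control these were in part different cells of cluster 3. Trdc was found in 14 of its 59 cells, and 35 of its 46 cells with Il17a or Il17f had Trac without Trdc. Trdc had log2 ratios of -3.71 in the control and -3.65 in the Keap1 cKO library, and the variable segment Trdv4 had -5.98 and -4.22. Cd163l1, a scavenger receptor of gamma-delta cells, had -3.42 and -3.54. Il17a was further below cluster 3 in the control (-7.09) than in the Keap1 cKO library (-2.60), as was Il17f (-6.32 and -1.31).

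Between the libraries, cluster 11 had lower levels of cytotoxic and NK receptor genes in the Keap1 cKO cells and higher levels of type 17 genes. Over 7421 genes with at least 20 UMIs, 1718 (23.2%) were at least 1.5-fold higher and 693 (9.34%) at least 1.5-fold lower in the Keap1 cKO library, and the median log2 ratio was 0.14. Scaling by the median of ratios moved that median to 0.01 and the split to 1354 higher and 1000 lower. All ratios below are of CPM, Keap1 cKO over control, and the 1.5-fold mark describes size and tests nothing.

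**Figure D3:**
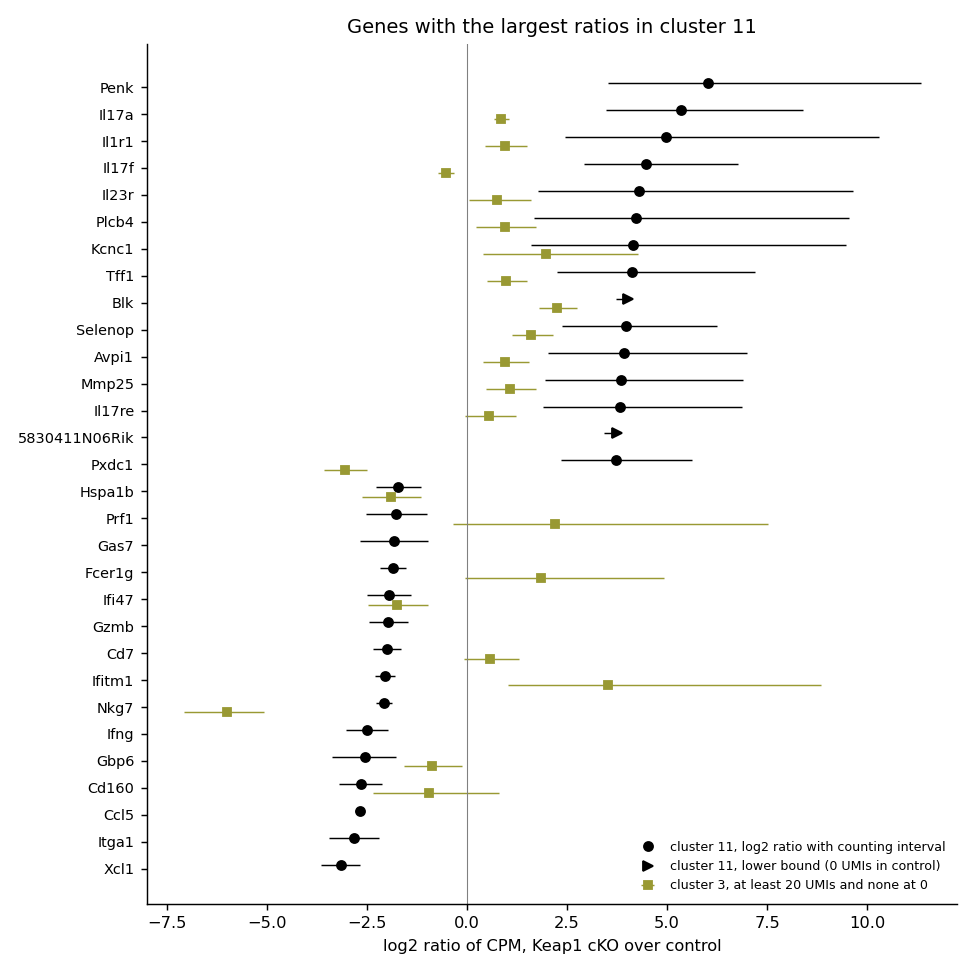
Log2 ratio of CPM, Keap1 cKO over control (x axis), for the 15 highest and 15 lowest genes by rule in cluster 11, with 95% counting intervals (arrowheads mark lower bounds for genes with 0 control UMIs), and for the same genes in cluster 3 where they were measured. Penk (6.02) is highest, followed by type 17 genes such as Il17a (5.34) and Il17f (4.48), Xcl1 (-3.15), Itga1 (-2.81) and Ccl5 (-2.68) lead the lower ones, and Il17f and Pxdc1 have ratios of the other sign in cluster 3.

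The chemokine genes came first among the lower ones. Xcl1 (chr1:164931644-164935527, minus strand), which draws cross-presenting dendritic cells, gave 133 UMIs in 22 control cells and 51 UMIs in 14 Keap1 cKO cells, or 382 and 43.1 CPM, giving a log2 ratio of -3.15 (-3.64 to -2.67). Its share of cells was 37.9% and 8.59%, and 36.5% and 7.43% after thinning, with 0.236% and 0.237% of epithelial cells as background. Ccl5 (chr11:83525778-83530518, minus strand) gave 1735 and 921 UMIs, 4984 and 779 CPM, a ratio of -2.68 (-2.79 to -2.56). High single cells carried it in both libraries: 14 of 58 cells in the control and 8 of 163 in the Keap1 cKO library had at least 50 Ccl5 UMIs, and 26 and 21 cells had at least 10. Cells with at least 10 Ccl5 UMIs thus made up a smaller share of the larger Keap1 cKO cluster, at a number not far from that of the control. Ccl4 had a ratio of -1.31.

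Interferon gamma (Ifng, chr10:118441046-118445892, plus strand) gave 85 UMIs in 27 control cells (46.6%) and 51 UMIs in 19 Keap1 cKO cells (11.7%), or 244 and 43.1 CPM, giving a log2 ratio of -2.50 (-3.03 to -1.98). After thinning the shares were 42.3% and 8.11%. Ifng was found in 0 of 178 control and 0 of 120 Keap1 cKO red blood cells, which allows shares of up to 1.69% and 2.50%. Il12rb2, the chain of the interleukin 12 receptor that type 1 cells add, had a ratio of -2.66, and the type 1 factor Tbx21 one of -1.18 with an interval that reached 0.01. The type 1 list had a median of -0.30, with 2 genes higher and 7 lower of 17, beside 23.2% and 9.34% of all genes. Its other members included Tnf (0.29) and Cxcr3 (-0.39), whose intervals held 0.

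Granule genes were lower as a group. Of 16 measured, 9 were at least 1.5-fold lower and 1 higher, against 9.34% and 23.2% of all genes, and the median was -0.63. Nkg7 (chr7:43437073-43438249, plus strand) gave 424 and 342 UMIs, 1218 and 289 CPM, giving a log2 ratio of -2.07 (-2.28 to -1.86). Perforin (Prf1), which opens the target's membrane, gave 32 UMIs in each library, a ratio of -1.76, and the granule protease Ctsw had -1.67. The higher gene was Rab27a (1.18), a GTPase that docks granules. Srgn, the proteoglycan that packs them, was even (0.10).

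The granzymes rested on few cells. Gzmb had a log2 ratio of -1.96 (-2.44 to -1.48) from 80 and 70 UMIs, but 3 cells held 85.0% of the control UMIs. Gzma had a ratio of -1.69 (-1.98 to -1.39) from 188 and 198 UMIs, and 3 cells held 98.9% of the control UMIs, 102 of them in 1 cell. The shares of cells hardly differed: 15.5% and 11% for Gzmb, 8.62% and 6.75% for Gzma. Without cells that had a Trdc UMI, the ratio of Gzma was -0.69. The levels of these proteases are therefore less firm than those of Nkg7, Xcl1 and Ifng, which were spread over 22 to 46 control cells.

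Receptors of NK and other innate-type lymphocytes were lower with the granule genes, with a median of -1.57. Of 18 measured, 0 were at least 1.5-fold higher and 14 lower, beside 23.2% and 9.34% of all genes. Klrk1 (NKG2D), which reads stress ligands on target cells, had a log2 ratio of -1.67, its relative Klrd1 (CD94) -1.70, and the adaptors Tyrobp and Fcer1g -1.47 and -1.84. Cd160, which sits on mucosal CD8 cells, had -2.65 (85 and 46 UMIs). Itga1, the integrin chain CD49a of resident killer cells, had -2.81 (70 and 34 UMIs). Cd226, a member of the same list, did not go with the rest (0.27, interval -0.18 to 0.75). In cluster 3 the list had a median of -0.01.

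Type 17 genes were higher in the Keap1 cKO cells of the cluster, but the 2 libraries divided such cells differently between the clusters. Cells with Il17a or Il17f and with Trac but no Trdc numbered 35 in cluster 3 and 2 in cluster 11 of the control. In the Keap1 cKO library they numbered 0 and 33. The type 17 ratios of cluster 11 thus include a difference in membership, and a change within 1 kind of cell was not tested. Of 20 measured gamma-delta and type 17 genes, 17 were at least 1.5-fold higher and 2 lower, with a median of 2.57 in which 3 genes at 0 in the control stand at their lower bounds. The background was 23.2% and 9.34%. Il17a (chr1:20730905-20734496, plus strand) gave 2 UMIs in 1 control cell and 276 UMIs in 44 Keap1 cKO cells, or 5.75 and 233 CPM, giving a log2 ratio of 5.34 (3.48 to 8.40). The UMIs were uneven, with 73 in the highest cell and 44.9% in 3 cells. Il17f (chr1:20777146-20790617, minus strand) gave 3 and 228 UMIs, 8.62 and 193 CPM, a ratio of 4.48 (2.92 to 6.77). In the sums over cells, interleukin 22 (Il22) went from 0 to 51 UMIs, at least 2.32 higher.

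Background RNA was checked for these cytokines too. Il17a was found in 27.0% of the cluster's Keap1 cKO cells (22.3% after thinning), against 14.0% of epithelial cells (1.34% after thinning) and 4.17% of red blood cells. With at least 4 UMIs asked for, 17 of 163 cells of the cluster had it, against 5 of 187 fibroblasts, 0 of 140 cells of epithelial cluster 9 and 0 of 120 red blood cells. Il17f was found in 25.8% of the cluster's cells, 4.03% of epithelial cells and 1.67% of red blood cells.

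Receptors and regulators of the type 17 state went the same way as the cytokines. The chemokine receptor Ccr6 was found in 5 control cells (8.62%) and 97 Keap1 cKO cells (59.5%), at 51.7 and 283 CPM, giving a log2 ratio of 2.45 (1.77 to 3.23), and after thinning in 7.69% and 49.3%. Epithelial cells had it in 0.354% and 1.42%. Il23r, the receptor that sustains these cells, had 1 and 67 UMIs and a ratio of 4.30 (1.77 to 9.63), and the interleukin 1 receptor Il1r1 had 1 and 106 UMIs and a ratio of 4.96 (2.45 to 10.28). Maf and Rora, factors shared with other helper states, had 1.48 and 1.46. The gamma-chain constant segments Tcrg-C2 (-0.96) and Tcrg-C4 (-1.23) went the other way, while Tcrg-C1 had 3.25. Near-identical gamma constant segments share reads, so these 3 values are uncertain.

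Icos and Il7r, which many activated and resident T cells use, were widespread. Icos, a costimulatory receptor, was found in 21 control cells (36.2%) and 115 Keap1 cKO cells (70.6%), with 149 and 541 CPM, giving a log2 ratio of 1.86 (1.45 to 2.29). Epithelial cells had it in 0.825% and 11.4% (0.893% after thinning in the Keap1 cKO library). Il7r, the receptor for the survival cytokine interleukin 7, stood at 520.0 and 1132 CPM, a ratio of 1.12. Pdcd1 (PD-1) had 8 and 138 UMIs and a ratio of 2.34, while Lag3, another inhibitory receptor, had 17 and 5 UMIs and a ratio of -3.53. The checkpoint list had no single direction, with 5 of 12 higher and 3 lower, beside 23.2% and 9.34% of all genes.

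The same genes were read side by side in cluster 3, which comes from the same libraries and is no independent check. Il17a stood there at 781 and 1416 CPM, a ratio of 0.86, and Il17f at 690.2 and 478 CPM, a ratio of -0.53 (-0.73 to -0.32). The type 17 list had a median of 1.46 in cluster 3, with 17 of 21 higher and 1 lower. Of all 9259 genes measured in cluster 3, 21.6% were at least 1.5-fold higher and 14.5% lower, with a median of 0.05. Nkg7 was lower in both clusters, with -2.07 in cluster 11 and -6.00 in cluster 3, where it went from 219 to 3.42 CPM.

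**Figure D4:**
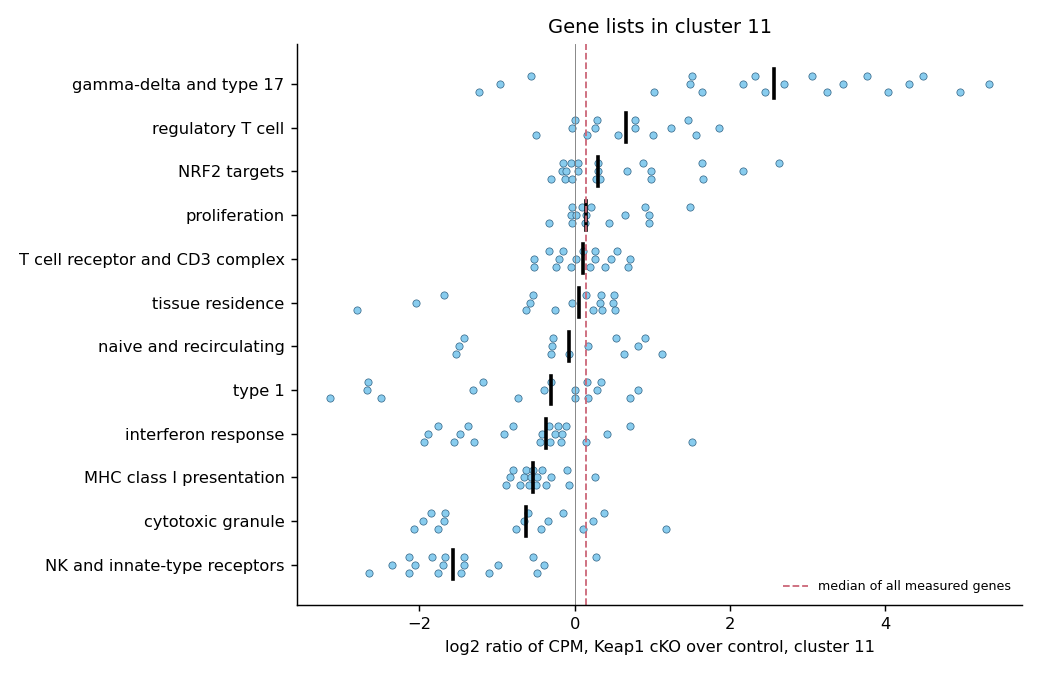
Log2 ratios of CPM, Keap1 cKO over control, in cluster 11 (x axis) for the measured members of each gene list (rows); each point is a gene, the bar is the list's median and the dashed line is the median of all measured genes (0.14). The gamma-delta and type 17 list lies highest (median 2.57) and the NK and innate-type receptors lowest of the pathway lists (-1.57), while the T cell receptor and CD3 complex lies at 0.10.

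The CD8 class allows the comparison within cells of 1 coreceptor, 25 control and 42 Keap1 cKO cells. In it 3287 genes were measured, of which 28.2% were at least 1.5-fold higher and 7.97% lower, with a median of 0.22. Both control cells rich in hemoglobin are in this class, where erythroid markers summed to 122748 CPM in the control and 1381 in the Keap1 cKO library. These UMIs count in the control total, and the class shares and list counts were not recomputed without the 2 cells. Of single genes recomputed without them, 14 stayed within their counting interval and 1 did not. Of 11 granule genes in this class 8 were lower and 0 higher, of 8 NK and innate-type receptors 5 were lower and 1 higher, and of 12 type 17 genes 9 were higher and 3 lower. The coreceptor genes themselves were close to even, with 0.10 for Cd8b1 and -0.44 for Cd8a. Cells entered the class by these genes, so their levels are no check on it.

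Ccl5 in the CD8 class was found in 21 of 25 cells in the control and 18 of 42 in the Keap1 cKO library, at 8865 and 2220.2 CPM, giving a log2 ratio of -2.0 (-2.14 to -1.86), and -2.18 without the 2 control cells rich in hemoglobin. Nkg7 was found in 25 of 25 and 28 of 42 cells, at 1816 and 733 CPM, a ratio of -1.31. Xcl1 gave 51 UMIs in 9 control cells and 3 UMIs in 3 Keap1 cKO cells, 355 and 10.7 CPM, a ratio of -5.06 (-7.38 to -3.43). Ifng was found in 14 and 8 cells, with a ratio of -1.15 (-1.93 to -0.39). Its ratio was nearer 0 here than in the whole cluster (-2.50), and Gzma was too (-0.59 and -1.69). Xcl1 was further from 0.

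Type 17 genes were also found in CD8 cells of the Keap1 cKO library. Il17f was found in 0 of 25 cells in the control and 12 of 42 in the Keap1 cKO library (55 UMIs), at least 3.23 higher on the log2 scale. Il17a was found in 0 and 8 cells (24 UMIs, at least 2.03 higher). Ccr6 was found in 1 control cell and 16 Keap1 cKO cells, with a ratio of 4.22 (2.32 to 7.29), and Icos in 5 and 25 cells, with a ratio of 3.42. In red blood cells and epithelial cells the shares of Il17f were those given above, so 12 of 42 lies above the free RNA measured there. The 14 CD8 cells with Il17a or Il17f had a median of 7361.5 UMIs and the other 28 had 5607. Whether these 14 are doublets of a CD8 cell and a type 17 cell was not tested.

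Over the whole cluster, 60 of 163 Keap1 cKO cells had Il17a or Il17f, 66 had Ccl5 or Nkg7, and 19 had both. The 19 cells had a median of 10412 UMIs, against 7097 for cells with the interleukin genes alone and 5755 for cells with Ccl5 or Nkg7 alone, and whether they are doublets was not tested. The corresponding control numbers were 2, 47 and 1 of 58. Of the 60 cells, 33 had Trac without Trdc and 23 had Trdc. In cluster 3 of the Keap1 cKO library 355 cells had Il17a or Il17f, of which 0 had Trac without Trdc and 354 had Trdc. Of the 33 cells, 11 also had no UMI of a gamma-chain constant segment. In the control, 35 of the 46 cells of cluster 3 with Il17a or Il17f had Trac without Trdc, 27 of them without a gamma-chain constant segment too.

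**Figure D5:**
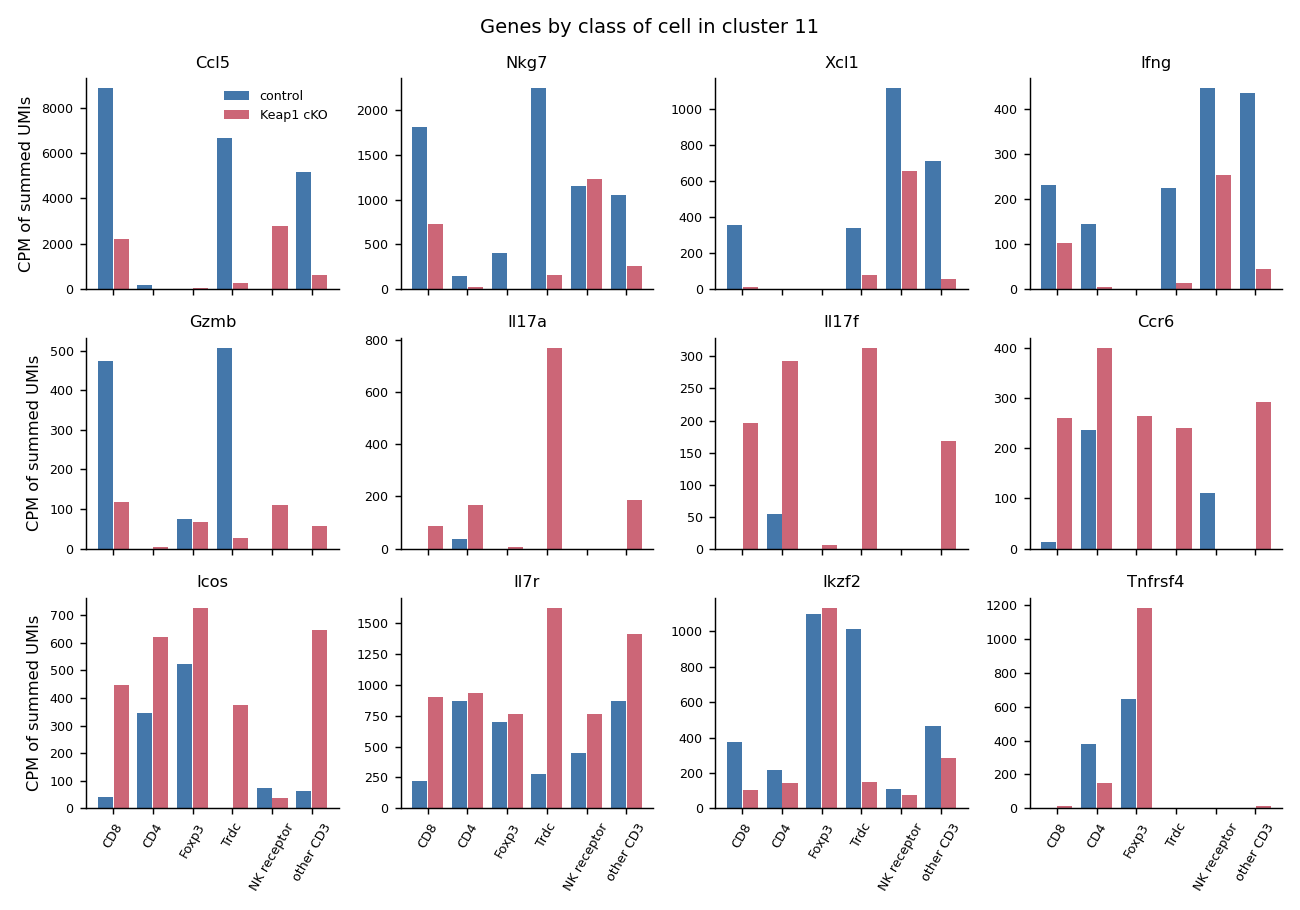
CPM of the summed UMIs (y axes, each from 0) of 12 genes in the classes of cluster 11, control and Keap1 cKO; a missing bar is 0 UMIs, and the control Trdc and NK receptor classes hold 3 cells each. Ccl5 in the CD8 class is at 8865 and 2220.2 CPM, and Il17f is at 196 CPM in the CD8 class and 293 CPM in the CD4 class of the Keap1 cKO library.

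The CD4 class without Foxp3, with 9 control and 28 Keap1 cKO cells, was too small in the control for a ratio. Of the 28 Keap1 cKO cells, 12 had Il17f (293 CPM), 10 had Il17a (167 CPM) and 21 had Ccr6 (399 CPM). In the control, 1 of 9 cells had each cytokine and 3 of 9 had Ccr6 (236 CPM). Cd40lg, the ligand by which helper cells license other cells, was found in 18 of 28 cells (222 CPM) and 4 of 9 (90.9 CPM). Ifng was found in 1 of 28 and 3 of 9.

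Regulatory genes were led by the Foxp3 class, with 7 control and 24 Keap1 cKO cells. Summed over the cluster, Foxp3 had a log2 ratio of 0.56 (-0.32 to 1.54) and Ctla4, an inhibitory receptor of these cells, -0.03 (-0.42 to 0.37). The regulatory list had a median of 0.66. Of its 14 measured genes, 7 were at least 1.5-fold higher and 0 lower, beside 23.2% and 9.34% of all genes. The 7 included Icos, which other classes share, Tnfrsf4 (0.77), Tnfrsf9 (1.46) and Il2ra (0.78), the alpha chain of the interleukin 2 receptor. For Ikzf4, Il10 and Il1r2, which are also among the 7, the interval held 0. Within the Foxp3 class, Tnfrsf4 stood at 648 and 1184 CPM, Ikzf2 at 1097 and 1133 CPM, Ctla4 at 1372 and 778 CPM and Il2ra at 524 and 401 CPM. The control class was too small for a ratio, and 1 of its 7 cells had 14553 UMIs. In the Keap1 cKO class, 1 of the 24 cells had 33204 UMIs, 464 of them of macrophage and dendritic cell markers. The values include both cells. Ccr6 was found in 0 of 7 control and 17 of 24 Keap1 cKO cells. Il1rl1, the receptor of interleukin 33, was found in 2 of 7 and 10 of 24. Nkg7 was found in 3 of 7 and 0 of 24 cells. Il17a and Il17f were each found in 1 of the 24.

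Penk, the precursor of the enkephalins, was the highest gene of the whole cluster, with 1 UMI in the control and 221 in the Keap1 cKO library, which makes a log2 ratio of 6.02 (3.53 to 11.33). It was found in 11 Keap1 cKO cells, of which 3 held 76.9% of the UMIs. In the Foxp3 class, 7 of 24 cells held 159 of the 221 UMIs, and 1 cell of the CD4 class held 57. Tff1, a secreted trefoil peptide, gave 2 and 119 UMIs (ratio 4.13), of which 71 lay in 9 of the 24 Foxp3 cells and 1 in the Trdc class. In cluster 3 of the same library, Tff1 was found in 162 of the 367 Trdc-class cells.

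In the Keap1 cKO library, the 31 Trdc-class cells of cluster 11 differed from the 367 of cluster 3. The class asks for 1 Trdc UMI, a count that free RNA raises, and 11 of the 31 cells also had Trac. How many of the 31 are gamma-delta cells was not tested. The clustering used these genes, so the values are a description. Trdc itself stood at 657 and 1909 CPM, giving a log2 ratio of -1.54, and Tcrg-V6 at 49.1 and 169 CPM (-1.79). Scavenger receptor genes divided them: 5830411N06Rik was found in 10 of 31 cells and in 7 of 367, at 335 and 6.74 CPM, a ratio of 5.64 (4.92 to 6.41), and Cd163l1 was lower in cluster 11 (-1.60). Genes of recirculating or less differentiated T cells were higher in cluster 11: the factor Tcf7 was found in 23 of 31 and 41 of 367 cells (277 and 22.1 CPM, 3.65), with S1pr1, the receptor for exit from tissue, at 3.57 and Klf2, its activator, at 2.66. Klrd1 (4.35) and Tyrobp (4.16) were higher too. Tff1 was lower (-5.62), as were Havcr2 (-2.90), an inhibitory receptor, and Pdcd1 (-1.57).

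Variable segments of the gamma and delta chains were found in few cells of cluster 11. Among all cells of the Keap1 cKO library, Tcrg-V4 was found in 15 of 163 cells of cluster 11 and 38 of 378 of cluster 3, and Tcrg-V6 in 12 and 254. Trdv4 was found in 19 and 356. Over both libraries 5830411N06Rik was found in 25 cells of cluster 11 and 8 of cluster 3, and Cd163l1 in 34 and 375, with 4 and 6 cells that had both. In cluster 11, 5 cells with 5830411N06Rik had Tcrg-V4 and 0 had Tcrg-V6.

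Genes of the T cell receptor complex were even, which sets a scale for the rest. Of 17 members 2 were at least 1.5-fold higher and 0 lower, beside 23.2% and 9.34% of all genes. The median was 0.10 beside 0.14 over all genes. Trac had 0.02 and Cd3e -0.24 (-0.51 to 0.03), and the higher genes were Trbc1 (0.71) and the kinase Zap70 (0.68). Among genes of tissue residence the median was 0.06. Of 16 measured, 0 were higher and 4 lower, beside the same shares of all genes, with Itga1 among the lower ones. Itgae, the integrin CD103 that holds cells to epithelium, had 0.35 with an interval that held 0, and Cxcr6 had 0.52. The list of naive and recirculating genes had no single direction, with a median of -0.07. Of 13 measured, 4 were higher and 3 lower, again beside 23.2% and 9.34% of all genes. Of single genes, Klf2 and Bcl2 were lower, with -1.53 and -1.49, while Tcf7 was even (0.17).

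Interferon-induced genes were on balance lower. Of 22 measured, 9 were at least 1.5-fold lower and 2 higher, beside 9.34% and 23.2% of all genes. The median was -0.37. The GTPases Ifi47, Gbp2, Gbp4, Igtp and Irgm1 had log2 ratios of -1.94, -1.89, -1.56, -1.37 and -1.76, and the factor Irf1 had -1.48. Ly6e (0.41) and Ifi27l2a (0.15) were not lower. In cluster 3 the list had a median of -0.78, with 14 of 23 lower and 0 higher, beside the 14.5% and 21.6% of all genes there. Genes of MHC class I presentation had a median of -0.54 in cluster 11. Of 17 measured, 7 were lower and 0 higher, beside 9.34% and 23.2% of all genes. The lower ones included H2-D1 (-0.63) and the immunoproteasome subunit Psmb9 (-0.88).

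NRF2 targets as a list stood not far from all genes. Of 21 measured, 8 were at least 1.5-fold higher and 0 lower, beside 23.2% and 9.34% of all genes, and the median was 0.30 beside 0.14. Gclc, a subunit of the enzyme that starts glutathione synthesis, gave 6 and 91 UMIs, a log2 ratio of 2.16 (0.98 to 3.64), and the transferase Gsta4 had 1.65 (0.67 to 2.82). The peroxiredoxin Prdx1 had 0.67 (0.32 to 1.03). Other common targets had intervals that held 0, with -0.30 for Txnrd1 (-1.07 to 0.51) and 0.30 for Gclm (-0.48 to 1.16). In cluster 3 the median was 0.31, with 8 of 24 higher and 1 lower, beside 21.6% and 14.5% of all genes.

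Markers of other cell types differed along with these results, and their part in them was not tested. The summed level of keratinocyte markers was 1275 and 970.3 CPM, and that of fibroblast markers 437 and 570.2 CPM. Macrophage and dendritic cell markers stood at 233 and 1010.1 CPM, with 4 of 6 measured genes higher, beside 23.2% of all genes. Their median was 1.86, and 0.75 without the 4 cells rich in them. Neutrophil markers stood at 2.87 and 324 CPM, with S100a8 at 0 and 197 UMIs but Retnlg at 0 and 3 and Csf3r at 0 and 5. Erythroid markers stood at 51289 and 1060.0 CPM, with a median of -5.46, and -0.11 without the 2 control cells. Without those 2 cells, 1504 genes were at least 1.5-fold higher and 849 lower over the cluster. Without the cells rich in macrophage markers, the log2 ratios of Il17a, Ifng and Nkg7 were 5.42, -2.41 and -1.99.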

How the data were processed

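Cells of mouse esophagus without muscle were dissociated with trypsin and libraries were made with a droplet 3′ kit, per the labels' protocols. The submitters' processing notes name the mm10 build and the tools Seurat 4.0.2, Cell Ranger 6.0.1 and R 4.1.1. The deposited values are natural logs that the authors made as ln(1 + 10000 × UMIs / total UMIs of the cell), and the authors' cluster number and cell type were used as given. Counts had been planned for. Since logs were deposited, UMIs were recovered from the steps of each cell's values, and 100% came out whole within 0.01 UMI.

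UMIs were summed over cells and scaled to CPM (Python 3.11.15, numpy 2.4.6, scipy 1.17.1, pandas 2.3.3, matplotlib 3.10.9). Shares have exact Clopper-Pearson and ratios exact conditional binomial 95% intervals, which cover counting error only. A gene was measured if the libraries together held at least 20 of its UMIs. Where 1 side of a ratio had none, the bound given as "at least" was computed from a floor of 3 counts summed over its cells. The lower limits of the 95% intervals lie below these bounds, as with 8.76 beside 9.06 for Ccl5 between the clusters in the control. The summed depth of cluster 11 (348104 and 1182092 UMIs) sets the precision. The ratio script was tested on simulated data.

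The leading genes were the 15 highest and 15 lowest ratios among genes with at least 50 UMIs, 50 CPM in 1 library and 0.5 times the level of cells outside clusters 11 and 3. That last condition left 3318 genes to be ranked and kept 116 others out, S100a8 and Krt6a among those kept out. Receptor segments, hemoglobin, mitochondrial and sex-linked genes were left out. Other genes named come from gene lists or were chosen after their values were seen. The members and lists were chosen with earlier results of these data known. Thinning used 3900 UMIs, the 10th percentile of the cluster's depth rounded down, which left out 6 control and 15 Keap1 cKO cells. Gene coordinates are mm10 from GENCODE vM21 (18323 of 18595 genes found), and the printed promoters from RefSeq (GRCm38.p6). Alternatives changed the scaling, cell weights, filters, fold and cells entered. Those that left out cells rich in hemoglobin, in macrophage markers or with Trdc, or kept the CD8 class alone, were chosen after seeing the data. Some members of the lists were counted with their list and are not reported by name here.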

Additional observations from a re-analysis of the deposited data

Results flagged for a closer look

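For 4 of the leading genes the log2 ratio of Keap1 cKO over control had the opposite sign in T cell cluster 3, with counting intervals on either side of 0. The difference between the clusters was not tested, and cluster 3 was a different mixture of cells in each library. Il17f had 4.48 in cluster 11 and -0.53 (-0.73 to -0.32) in cluster 3. Pxdc1 had 3.73 in cluster 11, where it was found in 3 control and 59 Keap1 cKO cells, and -3.04 (-3.58 to -2.49) in cluster 3. Of the 28 Keap1 cKO cells of the CD4 class, 17 had Pxdc1. Ifitm1 had -2.05 in cluster 11 (836 and 202 CPM) and 3.53 (1.02 to 8.84) in cluster 3, where it stood at 3.12 and 36 CPM. Gzmb had -1.96 in cluster 11 and was at 0 in control cells of cluster 3, where it gave 114 UMIs (35.4 CPM) in the Keap1 cKO library, at least 1.92 higher.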

How the results depend on the processing

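Depth limits what single cells show: a class rests on 1 UMI, and the control has 58 cells and 1 library. Of the gene ratios under the alternatives, 290 stayed within their counting interval and on their side of 0, 39 went beyond it and 3 reversed. Of the list medians 238 stayed within 1.5-fold and 10 did not. Of the counts and shares 31 stayed and 15 did not. The 15 include the cluster's shares of annotated T cells and of annotated T, B and myeloid cells. Those are other quantities than its share of all cells and were counted as moved whatever their value. The leading ratios of cluster 11 over cluster 3 depended on the library. Taken from 1 library alone in place of the mean of both, 52 of their values differed from that mean by over 1.5-fold and 8 by less. These genes were chosen for having the same direction in both libraries, so none of them could reverse. The 3 reversals among the gene ratios were those of Gbp6 (1.35), Cd8b1 (0.10) and Klrb1c (0.03) in the CD8 class alone. In that class 928 genes were higher and 262 lower out of fewer measured. With no filter 4692 genes were lower, with at least 50 UMIs 820 were higher and 261 lower, and at 2-fold 815 and 227. With at least 2 UMIs asked for, CD4 was found in 12.1% of control and 18.4% of Keap1 cKO cells, Foxp3 in 8.59% and Trdc in 16% of Keap1 cKO cells. Cluster 11 was 41.1% and 27.7% of annotated T cells and 16.7% and 13.8% of annotated T, B and myeloid cells. The median of gamma-delta and type 17 genes ranged from 1.98 to 2.72, that of granule genes from -0.76 to -0.37 and that of NK and innate-type receptors from -1.79 to -1.18. Without cells with a Trdc UMI, 1393 genes were higher and 582 lower. No paired analysis was possible because each genotype has 1 library and no test was made.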

Other observations

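Immunoglobulin heavy chain RNA was found with these T cells. Ighm gave 34 UMIs in control and 69 UMIs in Keap1 cKO cells of cluster 11 (97.7 and 58.4 CPM), against 3.12 and 1.24 CPM in cluster 3. The log2 ratio between the clusters was 4.97 and 5.55. Cd79b, the other B cell marker measured, did not go with it. Its ratios were -1.44 (-4.83 to 1.17) in the control and -0.42 (-1.05 to 0.18) in the Keap1 cKO library. The chemokine Cxcl10, which interferon gamma induces in many cells, gave 25 UMIs in control and 4 UMIs in Keap1 cKO cells of cluster 11, a log2 ratio of -4.41 (-6.39 to -2.87).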
